A study of Homo sapiens with 20 samples.

Results

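ABCA1, ABCG1, APOE, APOC1, PLTP, LPCAT3, SMPDL3A, MYLIP, SREBF1 and NR1H3 are known targets of the liver X receptors (LXRs) in cholesterol and lipid handling. All probes listed with these 10 genes were followed in a human uveal melanoma cell line exposed to retinoids. The array held 47323 probes, 14 of them listed with these genes. Of the 18269 probes that passed the filter on detection and were tested, for 10673 named genes in all, 12 were member probes covering all 10 genes. The rule uses gene names and no measured value, but the members were chosen with earlier results of these data known.

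The cells were Mel202, a uveal melanoma line with wild-type BRAF that carries the GNAQ alleles Q209L and R210K, and every group shares this background. At 24 h and again at 48 h there were 3 samples with 100 nM all-trans retinoic acid (ATRA), 2 with 100 nM 9-cis retinoic acid (9-cis RA) and 2 with the ethanol vehicle (EtOH). These 14 samples were measured on 20 Illumina BeadChip arrays, and arrays that share a number in their titles were averaged (replicate 2-3 averages arrays 2 and 3). Whether the samples were separate cultures is not in the labels, so p-values may cover technical spread alone, and results from 1 line stand for that line.

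LXRs are nuclear receptors that bind oxysterols, oxidised forms of cholesterol. They sit on DNA as partners of the retinoid X receptors (RXRs), and this pair can also be activated by a ligand of RXR. Active LXR raises genes that carry cholesterol out of the cell, load it onto lipoproteins, limit its uptake and build fatty acids. ATRA and 9-cis RA are the same molecule but for the arrangement about a single double bond, trans in ATRA and cis in 9-cis RA. The retinoic acid receptors (RARs) bind both, whereas RXRs bind 9-cis RA. The comparison of the isomers at the same dose and time therefore bears on genes that an RXR ligand can reach.

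The DNA just upstream of a listed start site is shown for each of the 3 genes that were higher with 9-cis RA than with EtOH at 24 h. The sequences are from RefSeq (GRCh38.p14), read 5′ to 3′ in the direction of the gene. They are 250 bases of ABCA1 (chr9:104928156-104928405, minus strand), APOC1 (chr19:44914422-44914671, plus strand) and LPCAT3 (chr12:7018477-7018726, minus strand). The APOC1 stretch lies inside the annotated gene, which begins at 44914325, so it is not the DNA upstream of the first base of that gene. Capitals mark a match to a direct repeat of 6-base units with 4 bases between them, the spacing that LXR and RXR prefer.
ABCA1: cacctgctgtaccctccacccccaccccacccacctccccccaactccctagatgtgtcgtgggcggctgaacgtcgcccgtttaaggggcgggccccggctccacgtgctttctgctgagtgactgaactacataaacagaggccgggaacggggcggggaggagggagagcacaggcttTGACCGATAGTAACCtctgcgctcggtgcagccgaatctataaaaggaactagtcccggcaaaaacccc
APOC1: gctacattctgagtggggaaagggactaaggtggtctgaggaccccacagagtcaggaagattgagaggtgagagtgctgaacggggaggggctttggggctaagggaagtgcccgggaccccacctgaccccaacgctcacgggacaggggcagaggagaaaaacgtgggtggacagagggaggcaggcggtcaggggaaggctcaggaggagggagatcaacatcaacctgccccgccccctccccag
LPCAT3: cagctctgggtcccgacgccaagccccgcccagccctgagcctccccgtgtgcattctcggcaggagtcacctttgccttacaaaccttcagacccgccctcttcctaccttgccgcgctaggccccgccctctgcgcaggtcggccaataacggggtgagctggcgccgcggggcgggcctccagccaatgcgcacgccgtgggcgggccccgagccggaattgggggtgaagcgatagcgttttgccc

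The match in ABCA1 starts at position -69 from the start site and lies on the reverse strand, where it reads GGTTACTATCGGTCA. It was found with the letters GGTNA, 5 bases of any kind and GGTNA again, on both strands of 300-base windows, which end 50 bases after the start site. The fifth free base is the first base of the second 6-base unit. These letters were written loosely so as to admit the known element of ABCA1, so the match there is no finding. Among the 14 windows of the 8 genes matched to a promoter, only this ABCA1 window held it, against 220 of 35116 promoters (0.626%). The stricter letters AGGTCA, 4 bases of any kind and AGGTCA again were in 0 of the 14 windows and in 7 of all promoters (0.0199%). The loose letters GNTCA, 6 bases of any kind and GNTCA again, for a direct repeat with 5 bases between, the spacing RAR and RXR prefer, were in 1 window of NR1H3 and in 0.729% of all promoters. An E-box, CACGTG, lay at position -147 of ABCA1 and in 1 window of PLTP, against 7.26% of all promoters. These matches describe letters and not binding.

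The 8 pigment cell markers with a listed probe were detected on all 20 arrays. Of 4 listed macrophage markers, which matter because macrophages carry much LXR activity, CD68 was detected on all arrays, AIF1 on 7 by its more often detected probe, and CD14 and MARCO on 1 array each. The retinoid response genes CYP26A1, RARB, DHRS3 and NRIP1 were all higher with each retinoid than with EtOH at both times. The arrays formed 2 sets by the number of detected probes, with 15870 to 17128 on 12 arrays (set 1) and 12561 to 14301 on 8 (set 2). Set 1 held 2 arrays of every group, and replicate 4 of ATRA was measured only in set 2. On the second principal component, with 19.21% of the variance, 4 samples lay lowest, at -35.64 to -14.88, namely replicate 4 of ATRA at both times and both samples of 9-cis RA at 24 h. The other 10 samples lay between -9.66 and 27.26.

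All values below are log2 normalized intensities, and a difference is the first group minus the second with its standard error. A probe passed at an adjusted p under 0.05 in limma's moderated test, adjusted over all 18269 probes by the method of Benjamini and Hochberg. Because each gene was read by separate probes, levels are compared between groups and never between genes.

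**Figure D1:**
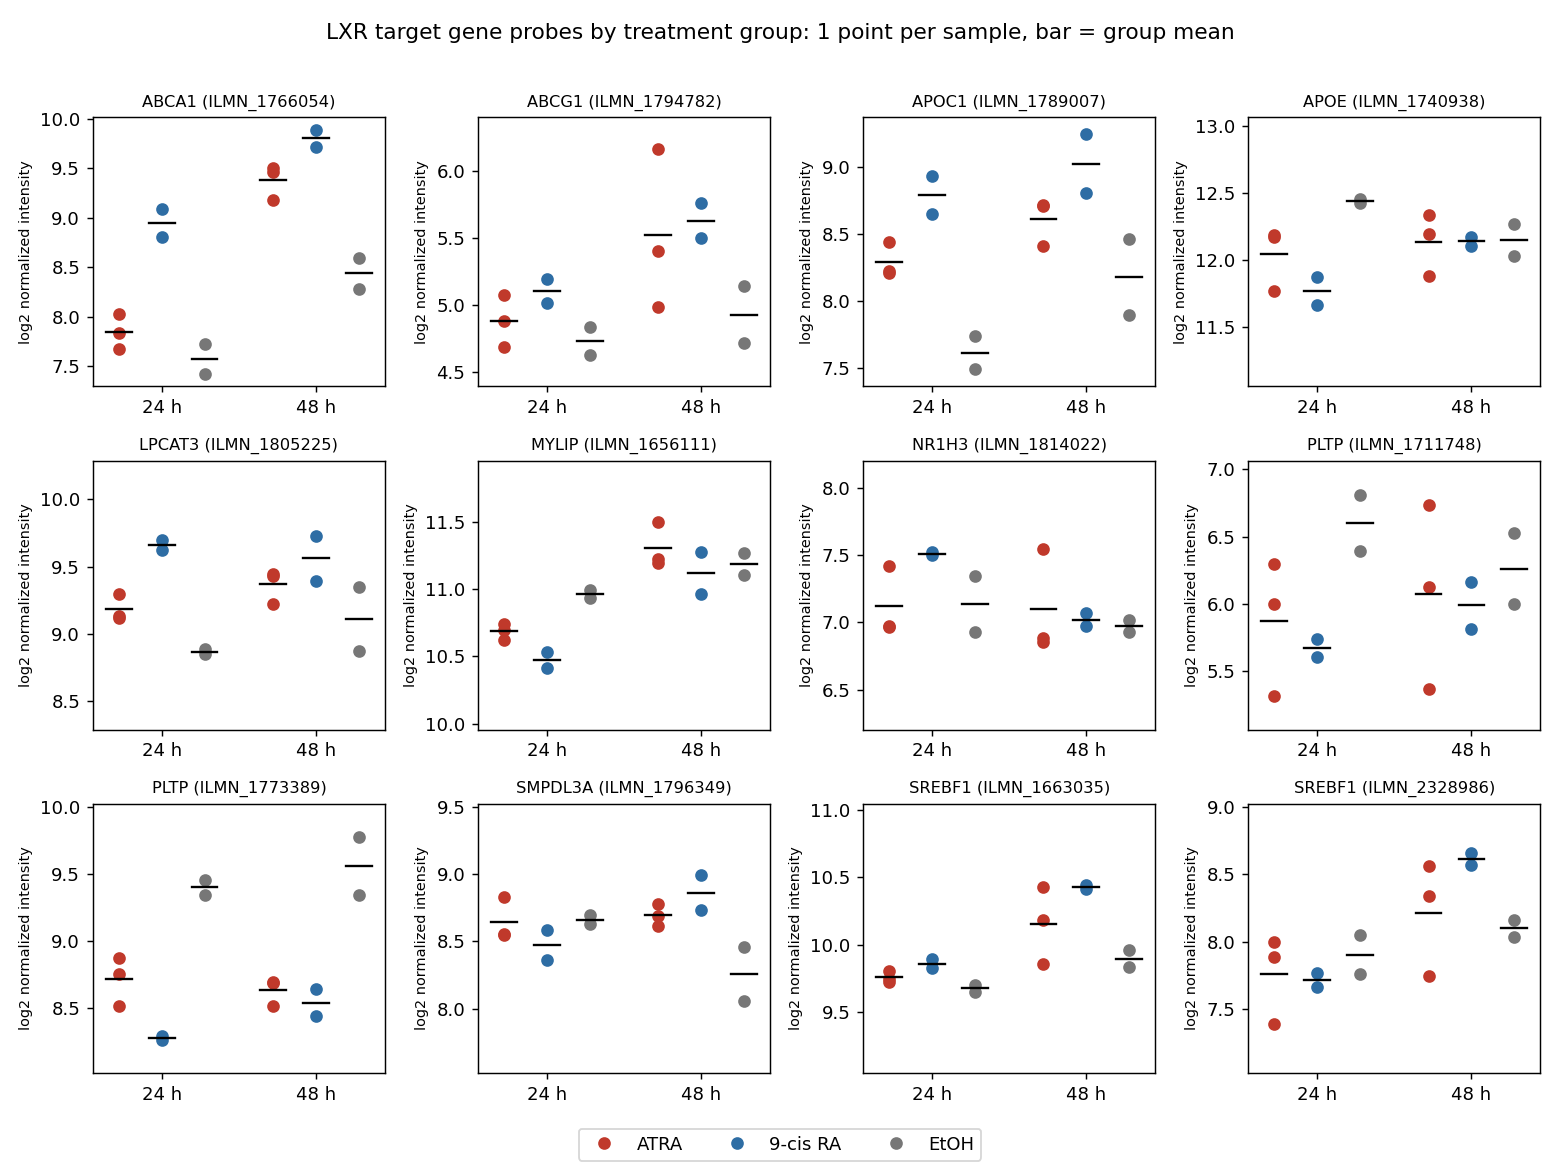
Log2 normalized intensity of each member probe that passed the detection filter, by sample, with ATRA, 9-cis RA and EtOH from left to right at 24 h and at 48 h. ABCA1 ranged from 7.42 to 9.89 over the 14 samples, whereas APOE stayed between 11.66 and 12.46.

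ABCA1, the transporter that moves cholesterol and phospholipid out of the cell onto apolipoprotein A-I, varied most clearly among the groups of all member probes (adjusted p of limma's overall F test 2.48e-05). At 24 h ABCA1 lay at 7.83, 7.67 and 8.03 in the ATRA samples and at 9.09 and 8.81 in the 9-cis RA samples, against 7.72 and 7.42 with EtOH. At 48 h ABCA1 lay at 9.18, 9.47 and 9.51 with ATRA and at 9.89 and 9.72 with 9-cis RA, against 8.28 and 8.60 with EtOH. Both 9-cis RA samples were thus above every ATRA and EtOH sample at 24 h and again at 48 h, while ATRA overlapped EtOH at 24 h and stood clear of it at 48 h.

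ABCA1 was 2.61-fold higher with 9-cis RA than with EtOH at 24 h (log2 difference 1.38 ± 0.20, adjusted p = 0.00120 in limma). At 48 h the ABCA1 difference between 9-cis RA and EtOH was 1.37 ± 0.20, which is 2.58-fold (adjusted p = 0.00102 in limma). With ATRA, ABCA1 passed against EtOH at 48 h, at 0.95 ± 0.18 or 1.93-fold (adjusted p = 0.00516 in limma), a call that was lost without EtOH replicate 1 (0.79 ± 0.21, adjusted p = 0.0641). At 24 h the ATRA difference of ABCA1 was 0.27 ± 0.18 (adjusted p = 0.467 in limma), with a 95% confidence interval for the fold of 0.925 to 1.58. The ATRA effect on ABCA1 was 0.67 ± 0.25 larger at 48 h than at 24 h, which did not pass (adjusted p = 1.00 in limma). The 9-cis RA effect on ABCA1 moved by -0.01 ± 0.28 between the times (95% confidence interval -0.61 to 0.59). ABCA1 was also higher at 48 h than at 24 h in the EtOH samples, by 0.87 ± 0.20, a difference that did not pass (adjusted p = 0.521 in limma) although the samples did not overlap.

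In order of mean level, ABCA1 stood at 9.80 with 9-cis RA at 48 h, 9.38 with ATRA at 48 h, 8.95 with 9-cis RA at 24 h, 8.44 with EtOH at 48 h, 7.84 with ATRA at 24 h and 7.57 with EtOH at 24 h. The lowest neighbours in this order, ATRA and EtOH at 24 h, overlapped in their samples. Every other pair of neighbours was free of overlap, with SDs within groups from 0.12 to 0.22 (n = 2 or 3). The ABCA1 sizes depend on the scaling, since the authors' deposited log2 values put the 9-cis RA difference at 24 h at 0.86 and the ATRA difference at 24 h at 0.15.

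**Figure D2:**
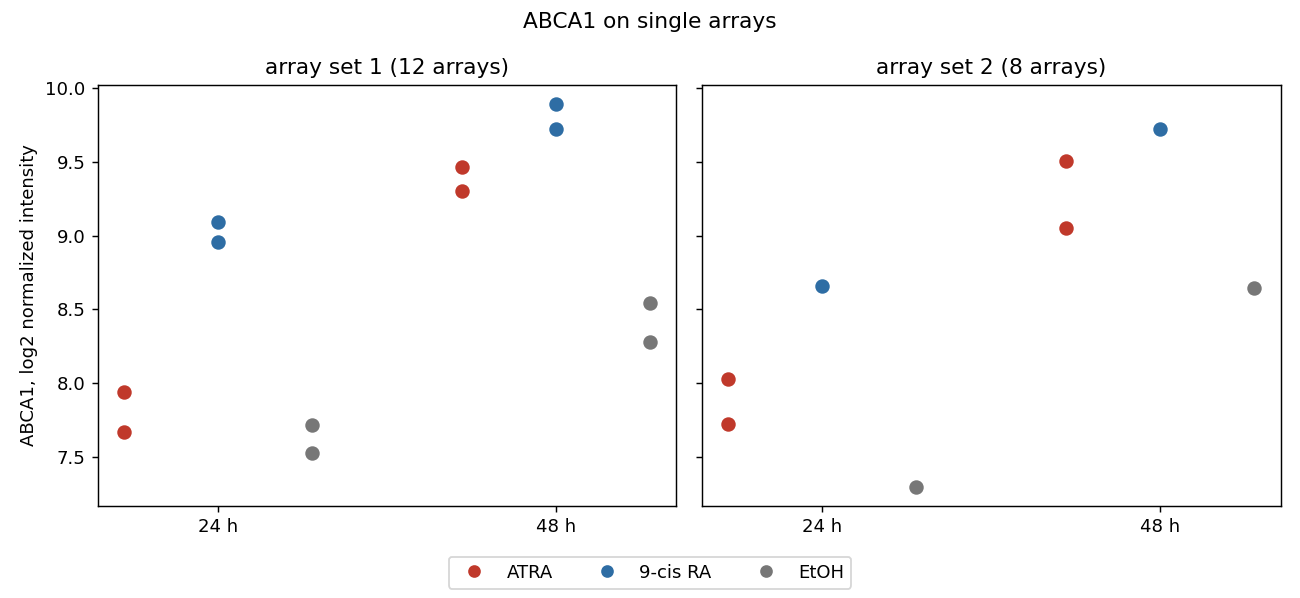
ABCA1 on each of the 20 single arrays, as log2 normalized intensity on the vertical axis, for ATRA, 9-cis RA and EtOH from left to right at each time, with the 12 arrays of set 1 on the left and the 8 arrays of set 2 on the right. In both sets the 9-cis RA arrays lie above the ATRA and EtOH arrays of the same time.

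The isomers were compared as 1 pair of compounds at 100 nM and at 2 matched times. ABCA1 was lower with ATRA than with 9-cis RA by 1.11 ± 0.18 at 24 h, with a 95% confidence interval of -1.49 to -0.72 for the difference, so the level with 9-cis RA was 2.15-fold that with ATRA. This ABCA1 difference did not pass over all probes (adjusted p = 0.107 in limma) and ranked 6 of 18269 by p. The difference passed in 5 of 18 other settings, and did not pass with the authors' deposited values or with the compared groups alone. Leaving out any 1 sample of ATRA or 9-cis RA at 24 h gave -1.25 to -0.97. It passed when each gene was tested by 1 probe (adjusted p = 0.0434), within array set 1 alone (-1.22 ± 0.17, adjusted p = 0.0204), and in a fit with a term for the array set and the title number as a random block (-1.07 ± 0.18, adjusted p = 0.0452). Without replicate 4 of ATRA at both times ABCA1 differed by -1.20 ± 0.19 at 24 h (adjusted p = 0.0222 in limma). Within set 2, with single 9-cis RA and EtOH arrays, the difference was -0.78 ± 0.28 (adjusted p = 1.00 in limma).

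At 48 h ABCA1 differed between ATRA and 9-cis RA by -0.42 ± 0.18 (95% confidence interval -0.81 to -0.03, adjusted p = 0.960 in limma). Over both times the difference of ABCA1 was -0.76 ± 0.13 (adjusted p = 0.0746 in limma), rank 12 of 18269. The gap between the isomers at 48 h minus that at 24 h was 0.69 ± 0.25 (95% confidence interval 0.14 to 1.23, adjusted p = 0.541 in limma). The 2 probes that passed between the isomers at 24 h were of SERPINA3 and ECM1, which are not among these genes.

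None of the 12 member probes passed between ATRA and 9-cis RA at 24 h, at 48 h or over both times in limma, against 0.0109%, 0.0164% and 0.0493% of all probes. At an unadjusted p under 0.05 there were 4, 1 and 4 member probes, against 8.23%, 4.28% and 4.25% of all probes. At 24 h the 4 were ABCA1, APOC1, LPCAT3 and a PLTP probe, and all 4 lay farther from EtOH with 9-cis RA than with ATRA. The share of all probes that did so was not computed. Of all probes at 24 h, 8.51% passed against EtOH with 9-cis RA and 3.4% with ATRA. Whether the lean was particular to these genes was not tested. APOC1 differed by -0.50 (95% confidence interval -0.94 to -0.06) and LPCAT3 by -0.48 (-0.84 to -0.11). The PLTP probe ILMN_1773389 differed by 0.44 (0.08 to 0.79). The samples of the isomers did not overlap for 7 member probes at 24 h (28.4% of all probes) and for 3 at 48 h (22.3%). The median difference over the member probes was -0.03 at 24 h and -0.14 at 48 h, against -0.01 over all probes at each time.

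For the other member probes the intervals at both times included 0, and they bound what could have been missed. At 24 h the interval ran from -0.11 to 0.66 for APOE, from -0.11 to 0.54 for MYLIP, from -0.87 to 0.09 for NR1H3 and from -0.45 to 0.24 for the brighter SREBF1 probe. At 48 h the interval ran from -0.85 to 0.03 for APOC1, from -0.55 to 0.17 for LPCAT3 and from -0.26 to 0.45 for the PLTP probe ILMN_1773389.

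**Figure D3:**
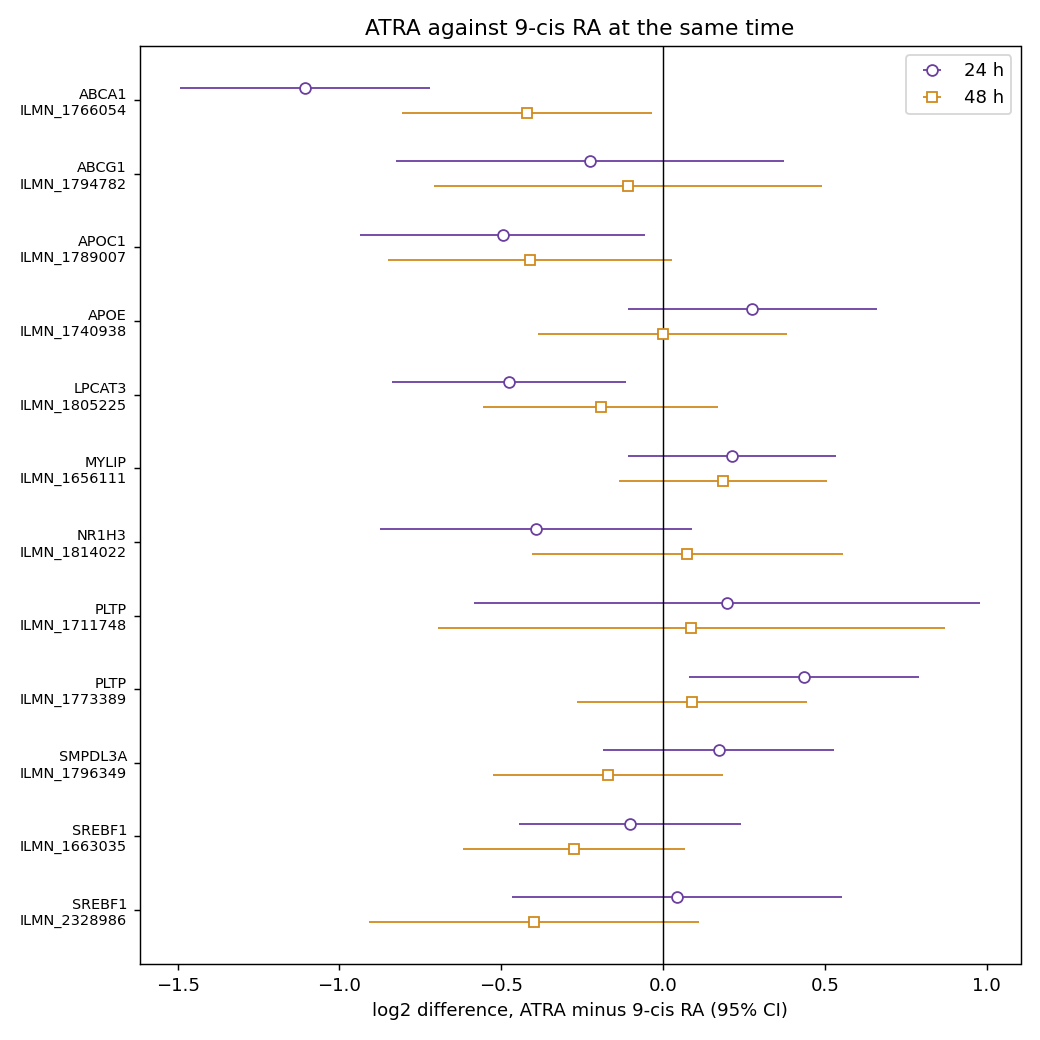
Log2 difference of ATRA minus 9-cis RA for each member probe, with 95% confidence intervals, at 24 h (circles) and 48 h (squares), all at 100 nM. ABCA1 at 24 h, at -1.11, lies farthest from 0, and the intervals of APOC1, LPCAT3 and 1 PLTP probe at 24 h also leave out 0.

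Against EtOH, the 12 member probes divided in direction. With ATRA at 24 h, 1 probe was lower and 0 were higher, where 3.4% of all probes passed, 2.02% higher and 1.38% lower. At 48 h 1 was higher and 1 lower with ATRA, where 12% of all probes passed, 5.59% higher and 6.38% lower. With 9-cis RA at 24 h, 3 were higher and 1 lower, where 8.51% of all probes passed, 5.12% higher and 3.38% lower. At 48 h 2 were higher and 1 lower with 9-cis RA, where 7.35% passed, 3.84% higher and 3.5% lower. Counts of 1 and 2 among 12 probes with ATRA are too small to set against these shares.

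The samples of retinoid and EtOH did not overlap for 7 member probes with ATRA at 24 h (41.8% of all probes) and for 3 at 48 h (34.6%). With 9-cis RA they did not overlap for 11 at 24 h (68.2%) and for 8 at 48 h (46.1%). Both of these counts include the ABCG1 probe ILMN_1794782, whose order is not informative. It was undetected on every 9-cis RA and EtOH array at 24 h and on every EtOH array at 48 h. The median member difference from EtOH was -0.02 with ATRA and -0.0006 with 9-cis RA at 24 h, and 0.19 and 0.48 at 48 h. Over all probes these medians were between -0.03 and -0.01. The comparisons with ATRA and with 9-cis RA at a time share their EtOH samples.

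Between the times, 0 of the 12 member probes passed in limma for the change of the ATRA effect, of the 9-cis RA effect, of the gap between the isomers or of EtOH itself, against 0.00547%, 0%, 0.00547% and 0.00547% of all probes. At an unadjusted p under 0.05 the members numbered 1, 2, 1 and 3, against 3.74%, 10.9%, 8.98% and 5.11% of all probes. EtOH samples of 48 h and 24 h did not overlap for 6 member probes (29.7% of all probes), ABCA1, APOC1, APOE, MYLIP, SMPDL3A and the brighter SREBF1 probe.

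**Figure D4:**
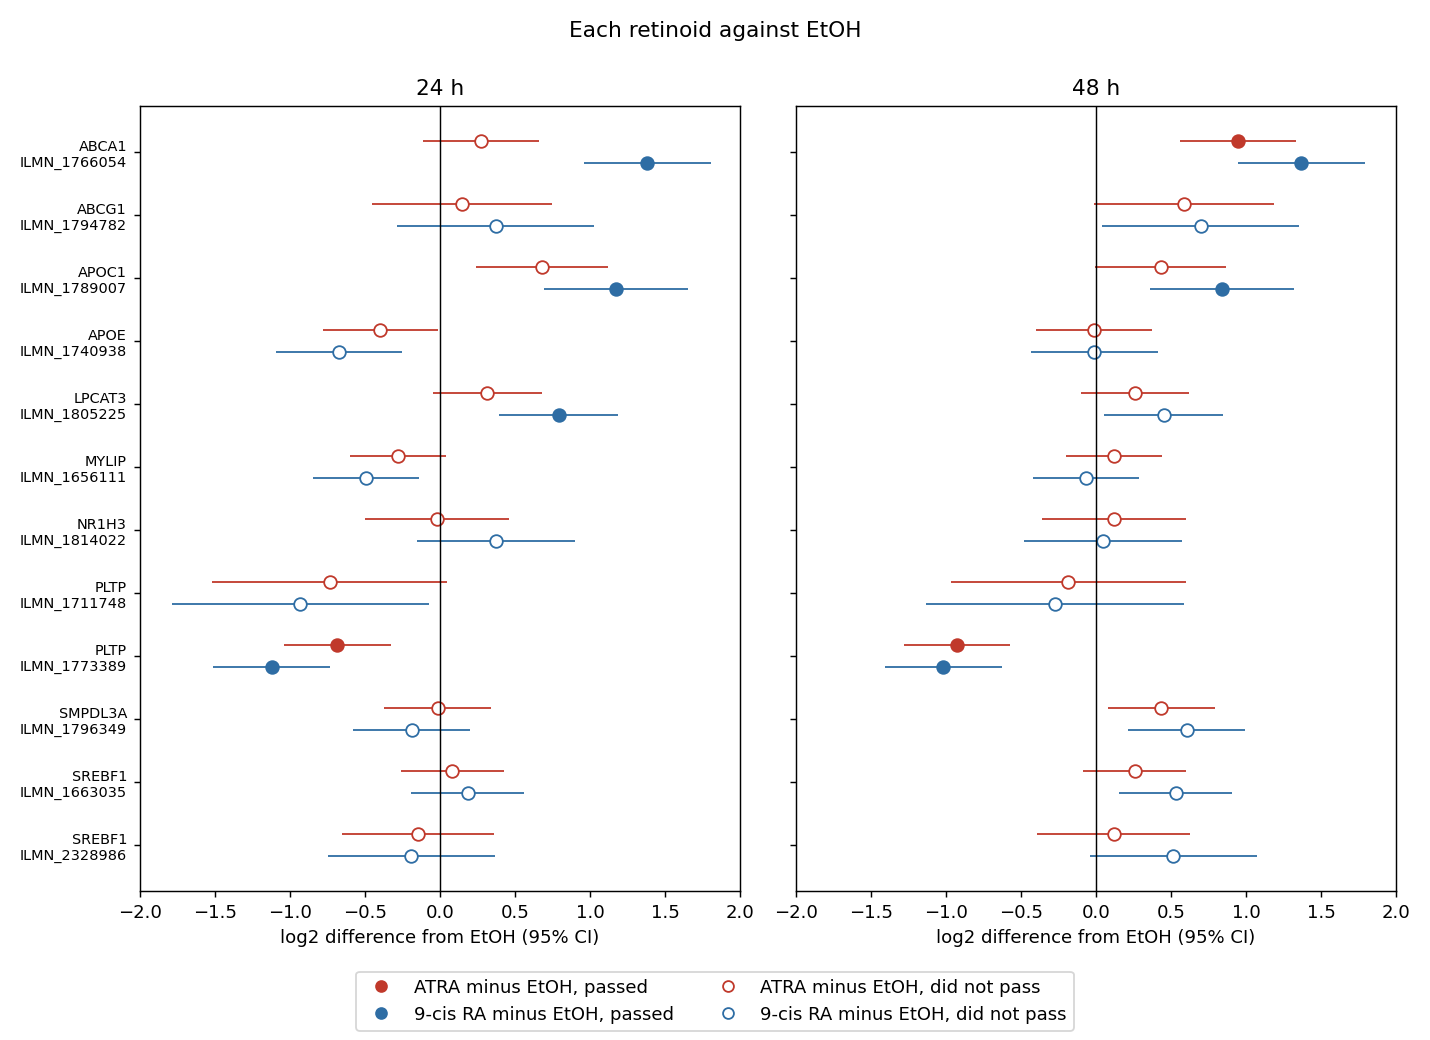
Log2 difference from EtOH for each member probe with ATRA and with 9-cis RA, at 24 h and at 48 h, with 95% confidence intervals. ABCA1, APOC1, LPCAT3, the SREBF1 probe ILMN_1663035 and the ABCG1 probe, which was near or below detection, lie above 0 in all 4 comparisons. Both PLTP probes and APOE lie below 0 in all 4, with APOE at -0.01 with each retinoid at 48 h.

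ABCG1, the partner transporter that passes cholesterol to high-density lipoprotein, was near or below detection. Its probe ILMN_1794782 was detected on 3 of 20 arrays, 1 with ATRA and 2 with 9-cis RA, all at 48 h. The second ABCG1 probe, ILMN_1658176, was detected on 2 arrays, both with 9-cis RA at 24 h, and did not pass the filter. Neither probe was detected on an EtOH array. Signals of ILMN_1794782 below detection cannot be ordered, and its 48 h difference from EtOH with 9-cis RA, 0.70 ± 0.30, did not pass (adjusted p = 0.203 in limma).

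The lipoprotein genes moved in different directions. APOC1, an apolipoprotein that inhibits cholesteryl ester transfer, had 8.44, 8.21 and 8.23 with ATRA and 8.65 and 8.93 with 9-cis RA at 24 h, against 7.49 and 7.74 with EtOH. At 48 h APOC1 had 8.71, 8.41 and 8.72 with ATRA and 8.80 and 9.24 with 9-cis RA, against 8.46 and 7.90 with EtOH. All 5 retinoid samples were above both EtOH samples at 24 h, whereas an EtOH sample lay within the ATRA range at 48 h.

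APOC1 was 2.26-fold higher with 9-cis RA than with EtOH at 24 h (1.17 ± 0.22, adjusted p = 0.00804 in limma) and 1.79-fold higher at 48 h (0.84 ± 0.22, adjusted p = 0.0384 in limma). The 48 h call of APOC1 was lost within set 1 (0.82 ± 0.27, adjusted p = 0.0851), with array medians made equal in place of quantiles (0.80 ± 0.26, adjusted p = 0.105), and without EtOH replicate 2-3 or either 9-cis RA sample (0.56 to 1.06, adjusted p = 0.0664 to 0.265). At 24 h it was lost without EtOH replicate 1 (adjusted p = 0.0844) or 9-cis RA replicate 2-3 (adjusted p = 0.0796). The 48 h call of APOC1 was also lost with only the compared groups and without a detection filter. In set 2, with single 9-cis RA and EtOH arrays, it was lost at both times. In all, the 48 h difference passed in 9 of 17 other settings. With ATRA the APOC1 difference was 0.68 ± 0.20 at 24 h (adjusted p = 0.0995 in limma) and 0.43 ± 0.20 at 48 h (adjusted p = 0.192 in limma).

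APOE, the ligand that carries lipoproteins to their receptors and that lies beside APOC1 on chromosome 19, did not pass in any comparison with EtOH. APOE had 12.18, 12.19 and 11.77 with ATRA and 11.87 and 11.66 with 9-cis RA at 24 h, against 12.46 and 12.42 with EtOH. Both retinoids were thus below EtOH at 24 h without overlap, by 0.40 ± 0.18 with ATRA (adjusted p = 0.276 in limma) and by 0.67 ± 0.19 with 9-cis RA (adjusted p = 0.0518 in limma), and neither difference passed. The 9-cis RA difference of APOE passed in 9 of 17 other settings, among them 1 probe per gene (adjusted p = 0.0334). At 48 h APOE had 12.20, 12.34 and 11.88 with ATRA and 12.17 and 12.11 with 9-cis RA, against 12.03 and 12.27 with EtOH. The differences of APOE at 48 h were -0.01 with each retinoid. The 4 samples lowest on the second principal component had APOE of 11.66 to 11.88, below the 12.03 to 12.46 of the other 10 samples, and the part of that component in the APOE differences was not tested.

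PLTP, the phospholipid transfer protein that remodels high-density lipoprotein, was lower with both retinoids at both times by its probe ILMN_1773389. At 24 h this PLTP probe read 8.76, 8.87 and 8.52 with ATRA and 8.30 and 8.26 with 9-cis RA, against 9.34 and 9.45 with EtOH. At 48 h it read 8.69, 8.70 and 8.52 with ATRA and 8.64 and 8.44 with 9-cis RA, against 9.78 and 9.34 with EtOH. No retinoid sample of this PLTP probe reached an EtOH sample at either time. In LXR biology PLTP is known as a gene that the receptor raises, and here it was the only member gene lower than EtOH past the threshold.

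The PLTP difference from EtOH with 9-cis RA was -1.12 ± 0.18 at 24 h (adjusted p = 0.00275 in limma) and -1.02 ± 0.18 at 48 h (adjusted p = 0.00448 in limma), which puts EtOH at 2.17-fold and 2.02-fold the level with 9-cis RA. With ATRA the PLTP difference was -0.68 ± 0.16 at 24 h (adjusted p = 0.0405 in limma) and -0.93 ± 0.16 at 48 h (adjusted p = 0.00353 in limma). The ATRA call for PLTP at 24 h was lost when any 1 sample of ATRA or EtOH at that time was left out (-0.76 to -0.58, adjusted p = 0.0508 to 0.333), and the 9-cis RA call at 48 h without 9-cis RA replicate 2-3 (-0.92 ± 0.23, adjusted p = 0.0558). The second PLTP probe, ILMN_1711748, was dimmer and detected on 15 arrays. Its differences from EtOH were -0.73 and -0.19 with ATRA and -0.93 and -0.27 with 9-cis RA at 24 and 48 h, and none passed. That probe also followed the second principal component, with 5.32 to 5.74 in the 4 lowest samples and 5.81 to 6.81 in the others.

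Of the membrane lipid genes, LPCAT3, the acyltransferase that places polyunsaturated chains on phospholipids, was higher with 9-cis RA at 24 h. LPCAT3 had 9.12, 9.14 and 9.30 with ATRA and 9.70 and 9.62 with 9-cis RA at 24 h, against 8.89 and 8.85 with EtOH. The 3 groups did not overlap, with ATRA between the others. The LPCAT3 difference from EtOH was 0.79 ± 0.18 with 9-cis RA, 1.73-fold (adjusted p = 0.0211 in limma), and this call was lost without any 1 of its 4 samples (0.76 to 0.83, adjusted p = 0.0928 to 0.165). The difference was 0.32 ± 0.17 with ATRA (adjusted p = 0.361 in limma). At 48 h LPCAT3 had 9.22, 9.45 and 9.43 with ATRA and 9.73 and 9.40 with 9-cis RA, against 9.35 and 8.87 with EtOH, and the differences of 0.26 and 0.45 did not pass.

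SMPDL3A, a secreted phosphodiesterase that LXR raises in human macrophages, had 8.78, 8.69 and 8.61 with ATRA and 8.99 and 8.73 with 9-cis RA at 48 h, against 8.05 and 8.46 with EtOH. All retinoid samples of SMPDL3A were above EtOH at 48 h, and the differences of 0.44 ± 0.16 with ATRA (adjusted p = 0.106 in limma) and 0.60 ± 0.18 with 9-cis RA (adjusted p = 0.0645 in limma) did not pass. The 9-cis RA difference of SMPDL3A at 48 h passed in 7 of 17 other settings. At 24 h SMPDL3A lay between 8.36 and 8.83 over the 7 samples, with differences of -0.01 and -0.19. EtOH itself was lower at 48 h than at 24 h for SMPDL3A, by -0.40 ± 0.18 (adjusted p = 0.967 in limma). The second SMPDL3A probe, ILMN_2100357, was detected on 2 arrays and was not tested.

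The remaining genes are regulators. NR1H3, which encodes LXR alpha and in human cells raises itself, had 6.97, 6.97 and 7.42 with ATRA and 7.52 and 7.50 with 9-cis RA at 24 h, against 6.93 and 7.35 with EtOH. At 48 h it had 6.86, 6.88 and 7.55 with ATRA and 6.98 and 7.07 with 9-cis RA, against 6.93 and 7.02 with EtOH. Its 4 differences from EtOH were between -0.02 and 0.37 and none passed. The 4 samples with the highest NR1H3 were the 4 lowest on the second principal component (7.42 to 7.55, against 6.86 to 7.35 in the others), 2 of them ATRA and 2 9-cis RA. The part of that component in the NR1H3 values was not tested.

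SREBF1, whose product drives fatty acid synthesis, had 10.18, 10.43 and 9.86 with ATRA and 10.44 and 10.42 with 9-cis RA at 48 h, against 9.83 and 9.96 with EtOH, by its probe ILMN_1663035. Both 9-cis RA samples were above EtOH, at a difference of 0.53 ± 0.17 (adjusted p = 0.0898 in limma), while an ATRA sample lay within the EtOH range, at a difference of 0.26 ± 0.16. The second SREBF1 probe, ILMN_2328986, differed by 0.52 ± 0.26 with 9-cis RA at 48 h and by 0.12 ± 0.23 with ATRA. At 24 h the SREBF1 differences of both probes were between -0.19 and 0.19 with either retinoid. No SREBF1 difference from EtOH passed, although that of ILMN_1663035 with 9-cis RA at 48 h passed in 5 of 17 other settings.

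MYLIP encodes the ubiquitin ligase IDOL, which sends the LDL receptor to breakdown. At 24 h MYLIP had 10.74, 10.62 and 10.69 with ATRA and 10.53 and 10.41 with 9-cis RA, against 10.99 and 10.94 with EtOH. The 3 groups did not overlap, and the differences from EtOH of -0.28 ± 0.15 with ATRA and -0.49 ± 0.16 with 9-cis RA did not pass (adjusted p = 0.365 and 0.0779 in limma). The 9-cis RA difference of MYLIP at 24 h passed in 5 of 17 other settings. At 48 h MYLIP lay between 10.97 and 11.50 over the 7 samples, with differences of 0.12 and -0.07.

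Other genes of the pathway were taken from fixed lists by function. Of 10 tested genes among 19 further LXR targets, 1 to 2 were higher and 0 to 1 lower in each comparison of a retinoid with EtOH. Of all probes, 2.02% to 5.59% were higher and 1.38% to 6.38% lower in these comparisons. Counts this small, here and in the lists below, cannot be set against these shares. MERTK, a receptor for the uptake of dying cells that LXR raises in macrophages, was higher in all 4 comparisons of a retinoid with EtOH. MERTK had 9.66, 9.59 and 9.69 with ATRA and 10.28 and 10.19 with 9-cis RA at 24 h, against 7.77 and 7.73 with EtOH. Its difference between ATRA and 9-cis RA at 24 h was -0.59 ± 0.14 (adjusted p = 0.488 in limma), and at 48 h -0.16 ± 0.14.

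SCD, the desaturase that makes monounsaturated fatty acids, was higher with 9-cis RA at 24 h (0.68 ± 0.18, adjusted p = 0.0344 in limma). APOD, an apolipoprotein of the lipocalin family, was detected on 2 of 3 EtOH arrays at each time and on 0 retinoid arrays. Its fitted difference passed as lower with ATRA at 48 h and with 9-cis RA at both times, and with 9-cis RA at 24 h it was at least 1.10-fold lower against the detection bound. At 48 h that bound gave no lower level of APOD with either retinoid.

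Among 6 tested genes of 8 for MYLIP substrates and sterol uptake, VLDLR, a lipoprotein receptor, was higher with ATRA at 24 h (0.78 ± 0.19, adjusted p = 0.0389 in limma) and at 48 h (0.91 ± 0.19, adjusted p = 0.00783 in limma). With 9-cis RA the VLDLR differences were 0.61 ± 0.20 and 0.67 ± 0.20 and did not pass. LRP8, the reelin and APOE receptor, was lower at 48 h by 1.27 ± 0.15 with ATRA and by 1.40 ± 0.17 with 9-cis RA (adjusted p = 0.000258 and 0.000289 in limma). The second LRP8 probe differed by -1.24 with each retinoid at 48 h.

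Of the 4 tested genes among 8 for oxysterol and bile acid enzymes, CYP27A1, which makes the LXR ligand 27-hydroxycholesterol, was higher with ATRA at 24 h (0.79 ± 0.19) and 48 h (0.77 ± 0.19) and with 9-cis RA at 48 h (0.79 ± 0.21). The adjusted p-values of CYP27A1 in limma were 0.0377, 0.0209 and 0.0358, and with 9-cis RA at 24 h its difference of 0.45 ± 0.21 did not pass. CYP39A1, an oxysterol hydroxylase, was detected on 0 EtOH arrays and at 48 h exceeded EtOH at least 1.25-fold with ATRA and at least 1.76-fold with 9-cis RA. The bounds rest on the detection limit (adjusted p = 0.00569 and 0.00127 for the fitted differences in limma).

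Of 4 tested genes among 9 receptors and partners, RXRB was higher with ATRA at 48 h (0.66 ± 0.15, adjusted p = 0.0140 in limma) and with 9-cis RA at 24 h (0.63 ± 0.16, adjusted p = 0.0339 in limma). NCOA1, a coactivator of nuclear receptors, was higher with ATRA at 48 h (0.59 ± 0.14, adjusted p = 0.0203 in limma) by its brighter probe, and its second probe did not pass the threshold. Of 9 tested genes among 13 in the SREBP2 pathway of cholesterol synthesis, LSS, lanosterol synthase, was lower with 9-cis RA at 24 h by its brighter probe (-0.84 ± 0.18, adjusted p = 0.0156 in limma). The second LSS probe, detected on 1 array with 9-cis RA and 0 with EtOH at 24 h, differed by 0.31 in that comparison, the opposite sign. None of the other SREBP2 pathway genes passed in any comparison of a retinoid with EtOH, and no gene of these 5 lists passed between ATRA and 9-cis RA.

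**Figure D5:**
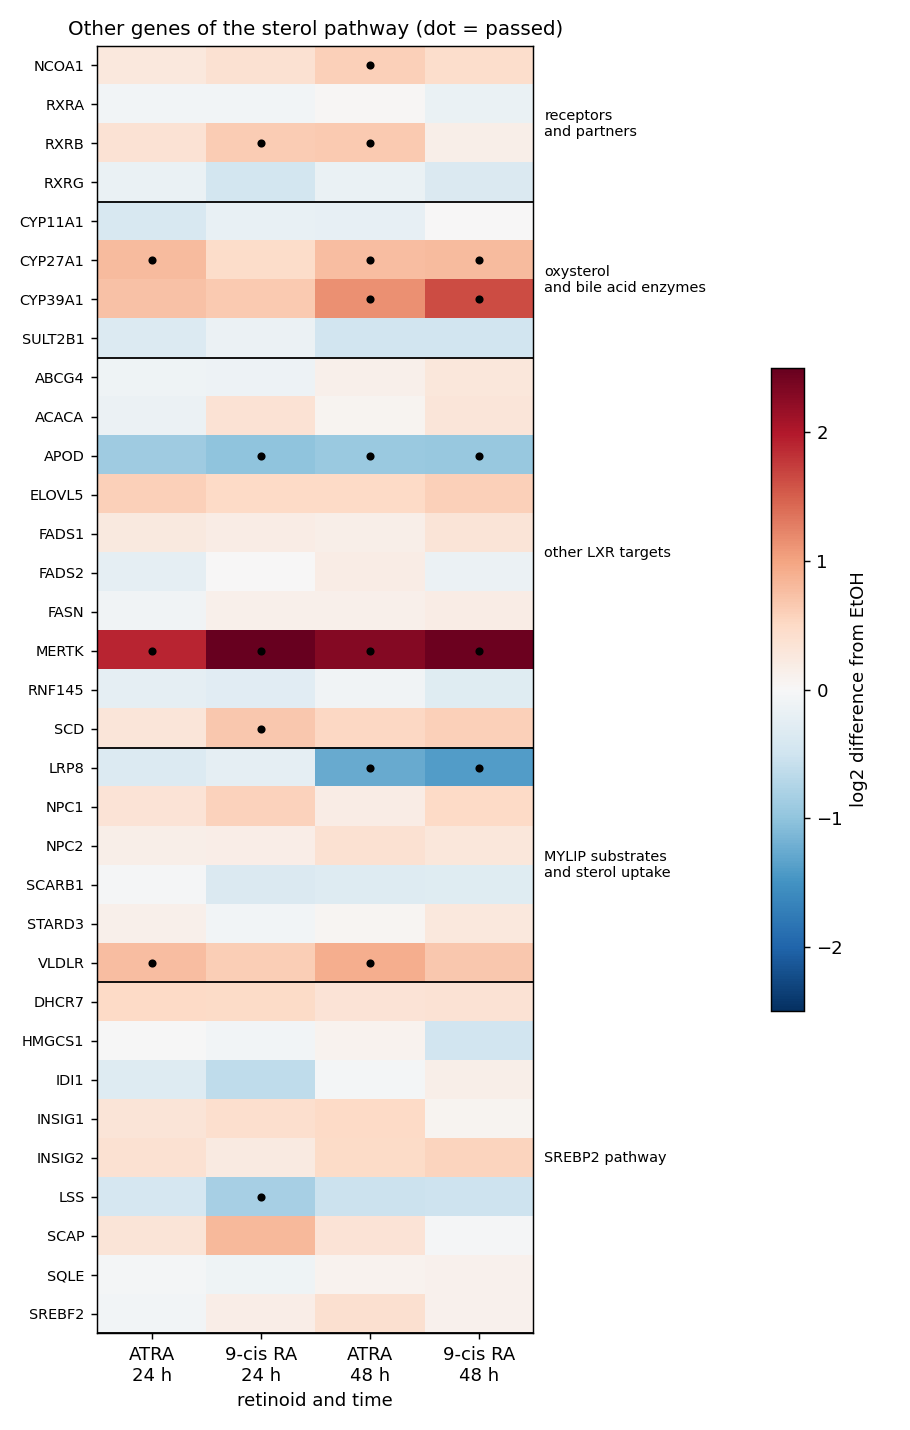
Log2 difference from EtOH for the tested genes of the 5 pathway lists with ATRA and with 9-cis RA at 24 and 48 h. MERTK has the largest differences, from 1.90 to 2.48, and LRP8 lies at -1.27 and -1.40 at 48 h.

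The genes whose pattern over the 14 samples was most like that of ABCA1 were P3H2, ALDH1A2, SPRY1, EEF1A2 and FBXO32. Likeness was the mean absolute difference in log2 values after each probe was centred on its own mean, and it was 0.29 to 0.33 for these genes, against a median of 0.74 over 10672 genes. P3H2, a collagen prolyl hydroxylase, averaged 6.01 with ATRA, 6.85 with 9-cis RA and 5.51 with EtOH at 24 h, and 7.34 with ATRA, 7.33 with 9-cis RA and 5.51 with EtOH at 48 h. SPRY1, an inhibitor of receptor tyrosine kinase signalling, averaged 7.59 with ATRA, 8.00 with 9-cis RA and 6.98 with EtOH at 24 h, and 8.29 with ATRA, 9.00 with 9-cis RA and 7.05 with EtOH at 48 h. All of the named genes had, as ABCA1 did, a higher mean with 9-cis RA than with ATRA at 24 h. They were picked for likeness to ABCA1 in these samples, so this shared order is no separate finding. In EtOH alone, ALDH1A2 averaged 6.01 at 48 h and 5.24 at 24 h, whereas P3H2 averaged 5.51 at both times.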

How the data were processed

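The authors deposited a table of non-normalized bead intensity for each probe on each of the 20 arrays, with no background subtraction or scaling between arrays visible in the values. Every intensity came with a deposited detection p-value, whose steps of 1 in 770 fit a rank among negative control probes. The deposited series matrix holds log2 values of 22579 probes, made with lumi per the submitters' processing notes. The version, transform and filter are not given in the sources used here. Gene names were given only for probes of that matrix, so a probe outside it could not be assigned to a member.

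Background correction (from detection p-values, which stand in for the negative controls), quantile normalization and log2 transformation were done with neqc (offset 16) in limma 3.58.1 and R 4.3.3. The filter kept 18269 probes, those whose detection p was under 0.01 on 3 or more arrays. Arrays with the same number in their titles were averaged. A model with 6 group means over 14 samples was fitted, with 8 residual and 4.38 prior degrees of freedom, and p-values were adjusted over all 18269 probes by the method of Benjamini and Hochberg. The contrasts were ATRA against 9-cis RA at each time and over both, each retinoid against EtOH at each time, the changes of these from time to time, and 48 against 24 h in EtOH. Where a group was undetected on every array, the fold is at least the ratio to the lowest detected signal. The number of arrays limits the precision.

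Every probe listed with the 10 genes is described. Genes of the 5 pathway lists are named where they passed, at most 4 per list and contrast. The genes most like the member with the lowest p of the overall F test are the 5 with the smallest distance. The members and lists were chosen with earlier results of these data known. Promoters came from RefSeq and matched 8 of the 10 genes. The pipeline was tested on simulated data with 200 changed genes. Python 3.11.15 with matplotlib 3.10.9 drew the figures. Other settings were no background correction, the authors' matrix, equal array medians, an offset of 50, other detection filters, 1 probe per gene, the compared groups alone, single arrays, the array sets, and leaving out samples.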

Additional observations from a re-analysis of the deposited data

How the results depend on the processing

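No difference of a member probe turned its sign while passing in any of the settings run. Of the outcomes recomputed in these settings, 2444 stayed on their side of the threshold, 51 passed where the reported one did not, and 39 no longer passed. Between ATRA and 9-cis RA the count of member probes that passed was 0 at 24 h. It was 1, ABCA1, with 1 probe per gene, with 20 arrays as independent, with the set as a term and the title number as a random block, in set 1 alone, and without replicate 4 of ATRA at both times. Over both times it was 0, and 1 without background correction, with the authors' matrix, equal medians, an offset of 50, 1 probe per gene, 20 arrays, the set term or set 1 alone. For ATRA against EtOH at 24 h the count was 1, and 0 with equal medians, a detection p of 0.05, only the compared groups, either set alone or without replicate 4, and 2 with 20 arrays or the set term. It was 0 whichever sample was left out. At 48 h it was 2, and 3 with 20 arrays, 0 with only the compared groups or in set 2, and 1 to 3 with 1 sample left out. For 9-cis RA against EtOH at 24 h the count was 4, and 7 with only the compared groups, 20 arrays or the set term, 0 in set 2, and 2 to 3 with 1 sample left out. At 48 h it was 3, and 5 without background correction, with the authors' matrix or the set term, 6 with 20 arrays, 0 with only the compared groups or in set 2, and 1 to 3 with 1 sample left out. In the settings not named here, the count for 9-cis RA against EtOH was 4 to 6 at 24 h and 2 to 4 at 48 h. For EtOH at 48 against 24 h the count was 0, and 1 with 20 arrays. Set 2 holds single arrays of 9-cis RA and EtOH in each group. A fit on only the compared groups or on set 2 has fewer residual degrees of freedom. Why the counts changed was not tested for any setting. No paired analysis was possible because the labels give no replicate number that ties a treated sample to a control. Signal over background limits ABCG1 and the second probes of PLTP and SMPDL3A.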
